A study of Mus musculus with 4 samples.

Results

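The Slc25a genes encode the mitochondrial solute carriers, and their neighbourhoods were searched for chromatin bound by tagged MafG in mouse liver. Members were all protein-coding genes on chromosomes 1 to 19 whose symbol starts with Slc25a, 43 of 20665 such genes in the RefSeq table. Livers of C57BL6/J mice were labelled Ad BLRP MAFG (MafG carrying the BLRP tag, 2 libraries) or Ad BLRP Control (2 libraries), and both were precipitated with an Avi-tag antibody against the tag. The files hold no measure of native MafG or of the amount of tagged MafG in these livers. The labels give no age or sex for the mice, and a list of peaks holds no expression values against which the liver label could be checked. The authors deposited a single list of 68763 peaks, based on 20406492 BLRP-MafG tags and an implied 1.72e+07 control tags. It gives 1 value per peak for each group, not per library, so spread between livers is unknown and no difference was tested between animals.

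Proteins of this family sit mostly in the inner mitochondrial membrane, where each one exchanges a small solute between the matrix and the cytosol. In hepatocytes they connect the urea cycle, gluconeogenesis, fatty acid oxidation, oxidative phosphorylation and the supply of cofactors across that membrane. MafG, one of the small MAF basic leucine zipper factors, has no transactivation domain of its own and binds DNA as a homodimer or with partners such as NRF2 and BACH1.

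Nearly every Slc25a gene had a listed peak nearby, and most of these peaks were of modest height. Of the 43 genes, 41 (95.3%) had the midpoint of a peak within 10 kb of either end of the gene, against 71.2% of all protein-coding genes on the same chromosomes. Within 1 kb of a gene end the count was 17 of 43 (39.5%), against 25.4% of all genes. At least 2 peaks within 10 kb were listed for 24 genes (55.8%, against 40.9% of all genes), and Slc25a38 had the most, with 5. Peaks that also lay near another gene were counted, so a peak near a member may belong to its neighbour. Slc25a genes had a median length of 20.7 kb (quartiles 8.50 and 33.3 kb), against 17.5 kb (quartiles 5.93 and 45.0 kb) for all genes. The median number of other gene ends within 10 kb was 1 in both sets. Among all genes whose length lay inside the Slc25a quartiles, 78.0% had a peak within 10 kb and 28.6% within 1 kb. Without chemosensory receptor genes (olfactory, vomeronasal, trace amine and taste), the shares of the remaining genes were 74.7% and 26.9%. The part of these features in the counts was not tested.

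Heights are normalized tag counts, the BLRP-MafG tags in a peak scaled by the authors to a total of 10000000, and their brackets are exact 95% Poisson intervals of tag counting. The highest peak within 10 kb had a median of 16.7 over the 43 genes, with genes lacking a peak at 0, against 11.3 over all genes. Among genes with a peak, both medians were 17.2. A height of 20 or more was reached by 20 members (46.5%, against 30.6% of all genes) and a height of 50 or more by 7 (16.3%, against 11.0%). At 100 or more stood 2 members, or 4.65%, against 4.46% of all genes. The share of members was thus above that of all genes at 20 and at 50, and close to it at 100. No test was applied to these shares.

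**Figure D1:**
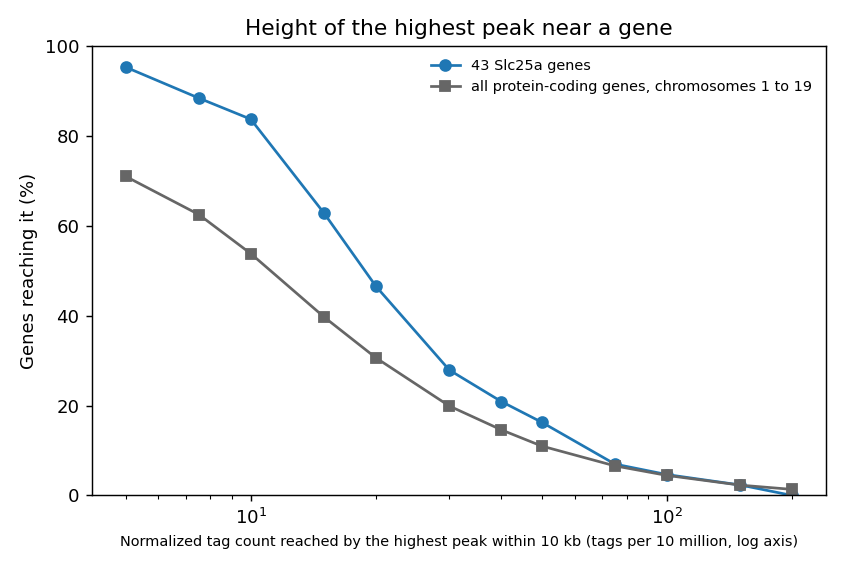
Share of genes (y axis, percent) whose highest peak within 10 kb of a gene end reached the normalized tag count on the x axis (tags per 10000000, log axis), for the 43 Slc25a genes (blue circles) and all 20665 protein-coding genes on chromosomes 1 to 19 (grey squares). The Slc25a curve lies above the other up to 50, with 83.7% against 53.8% at 10 and 16.3% against 11.0% at 50, and the curves lie close together at 100, with 4.65% against 4.46%.

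The 80 distinct peaks behind these counts had a median height of 15.4 (quartiles 11.6 and 28.4), and the lowest stood at 5.39. The control held 0 tags in 36 of them (45.0%), against 44.4% of all listed peaks, and never more than 8. Every listed peak had already passed a 10-fold excess over control, so low control counts follow in part from the caller's filter. With so few control tags the ratios are loosely known: 13 of the 80 had an exact 95% lower limit of the ratio to control above 10. Peaks within 1 kb of a member ranged from 5.39 to 35.3, with a median of 13.2 in 21 peaks. The 59 peaks between 1 and 10 kb had a median of 15.7, and all 8 peaks of 50 or more were among them. For all listed peaks on these chromosomes, placed by the nearest end of any gene, the medians were 10.8 within 1 kb and 12.3 between 1 and 10 kb. Member peaks were placed by the ends of the member even where another gene was nearer, so these medians are not strictly comparable. Among genes with a peak within 1 kb, the highest such peak had a median of 16.7 for members and 11.3 for all genes.

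Another protein-coding gene had a nearer end at 22 of the 81 pairs of peak and member (27.2%), and 1 of these 22 lay within 1 kb of the member. The highest peak was closer to another gene for 12 of the 41 members with a peak. Counting only peaks with no nearer end of another gene, 33 members had one within 10 kb (59.5% of all genes by the same count). The same 17 had one within 1 kb (22.8% of all genes). Midpoints lay inside the member for 26 of the 81 pairs and outside it for 55. The annotation used gives gene ends and some start sites but no exons, so introns, exons and untranslated regions were not separated.

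**Figure D2:**
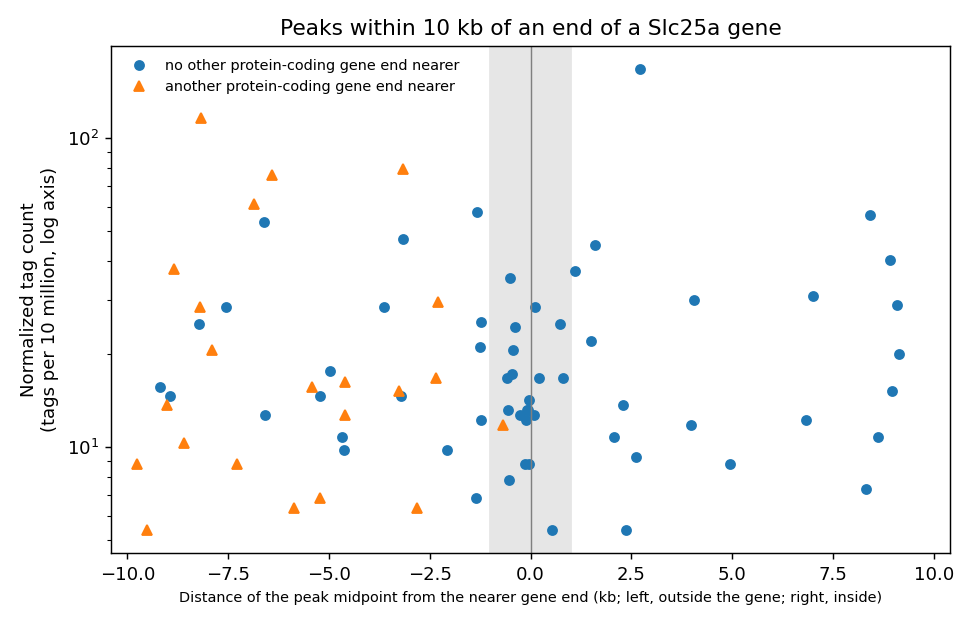
Each of the 81 pairs of peak and Slc25a gene by distance of the peak midpoint from the nearer gene end (x axis, kb, negative outside and positive inside the gene) and normalized tag count (y axis, tags per 10000000, log axis). The grey band marks 1 kb on either side of a gene end, where no peak exceeded 35.3. Orange triangles mark the 22 pairs in which another protein-coding gene had a nearer end, and the peak between Slc25a24 and Slc25a54 appears for both.

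Close to start sites the few peaks of members lay mostly upstream. RefSeq start sites were listed for 32 of the 43 members, and 9 of these (28.1%) had a peak within 1 kb of one, against 22.5% of all genes with a listed start. Of the 10 such peaks, 9 had their midpoint upstream of the nearest start and 1, in Slc25a21, downstream. Among the 9, the peak of Slc25a47 lay inside the gene, upstream of a listed start within it. Neither this division nor the share of genes with a midpoint within 300 bp of a start was computed over all genes. Such a midpoint was found at 6 members: Slc25a21, Slc25a25, Slc25a30, Slc25a15, Slc25a13 and Slc25a29, with heights from 8.82 to 16.7. For 4 of them the peak covered at least 188 of the 250 bases just upstream of the start. The full windows of these 4 follow because the peaks covered most of each, and the bases outside the peak are not marked. They are from RefSeq (build GRCm38.p6, the assembly of mm10), all on the minus strand of the chromosome and read 5′ to 3′ towards the start site. Capitals mark matches to the antioxidant response element core TGACNNNGC, the MAF half-site TGCTGA or the AP-1-like core TGANTCA on either strand. Matches to these motifs may share bases.
Slc25a25 (chr2:32451471-32451720): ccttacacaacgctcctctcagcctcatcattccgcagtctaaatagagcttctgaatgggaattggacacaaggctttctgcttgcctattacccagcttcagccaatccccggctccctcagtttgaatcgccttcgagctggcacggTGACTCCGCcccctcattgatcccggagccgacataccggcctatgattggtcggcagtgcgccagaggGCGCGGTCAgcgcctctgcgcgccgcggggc
Slc25a13 (chr6:6217174-6217423): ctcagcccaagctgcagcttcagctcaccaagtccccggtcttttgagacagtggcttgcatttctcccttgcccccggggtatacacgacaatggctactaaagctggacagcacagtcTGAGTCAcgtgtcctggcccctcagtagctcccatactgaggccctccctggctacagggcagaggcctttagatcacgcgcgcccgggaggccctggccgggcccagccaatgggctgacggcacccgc
Slc25a15 (chr8:22398622-22398871): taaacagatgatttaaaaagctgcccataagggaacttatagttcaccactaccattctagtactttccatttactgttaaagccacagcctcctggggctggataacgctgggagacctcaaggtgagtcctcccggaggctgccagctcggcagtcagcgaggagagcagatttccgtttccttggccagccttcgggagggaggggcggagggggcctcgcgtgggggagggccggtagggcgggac
Slc25a29 (chr12:108835877-108836126): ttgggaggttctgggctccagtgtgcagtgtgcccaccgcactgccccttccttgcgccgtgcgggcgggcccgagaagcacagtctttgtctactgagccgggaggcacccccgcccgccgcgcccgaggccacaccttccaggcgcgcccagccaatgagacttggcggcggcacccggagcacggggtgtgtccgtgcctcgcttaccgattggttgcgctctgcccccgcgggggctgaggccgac

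Slc25a25 held TGACNNNGC on both strands, as TGACTCCGC 100 to 92 bases before the start and as GCGCGGTCA 31 to 23 bases before it, and both matches lay inside the peak. Slc25a13 held TGAGTCA 130 to 124 bases before its start, also inside the peak. The windows of Slc25a15 and Slc25a29 held none of the motifs. Among all 20085 promoter windows of the same length on these chromosomes, 10.6% held TGACNNNGC, 14.8% TGCTGA and 6.18% TGANTCA. Among the 39 windows of Slc25a genes the counts were 6, 3 and 2. A match is a description of letters, not evidence that a factor binds there.

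**Figure D3:**
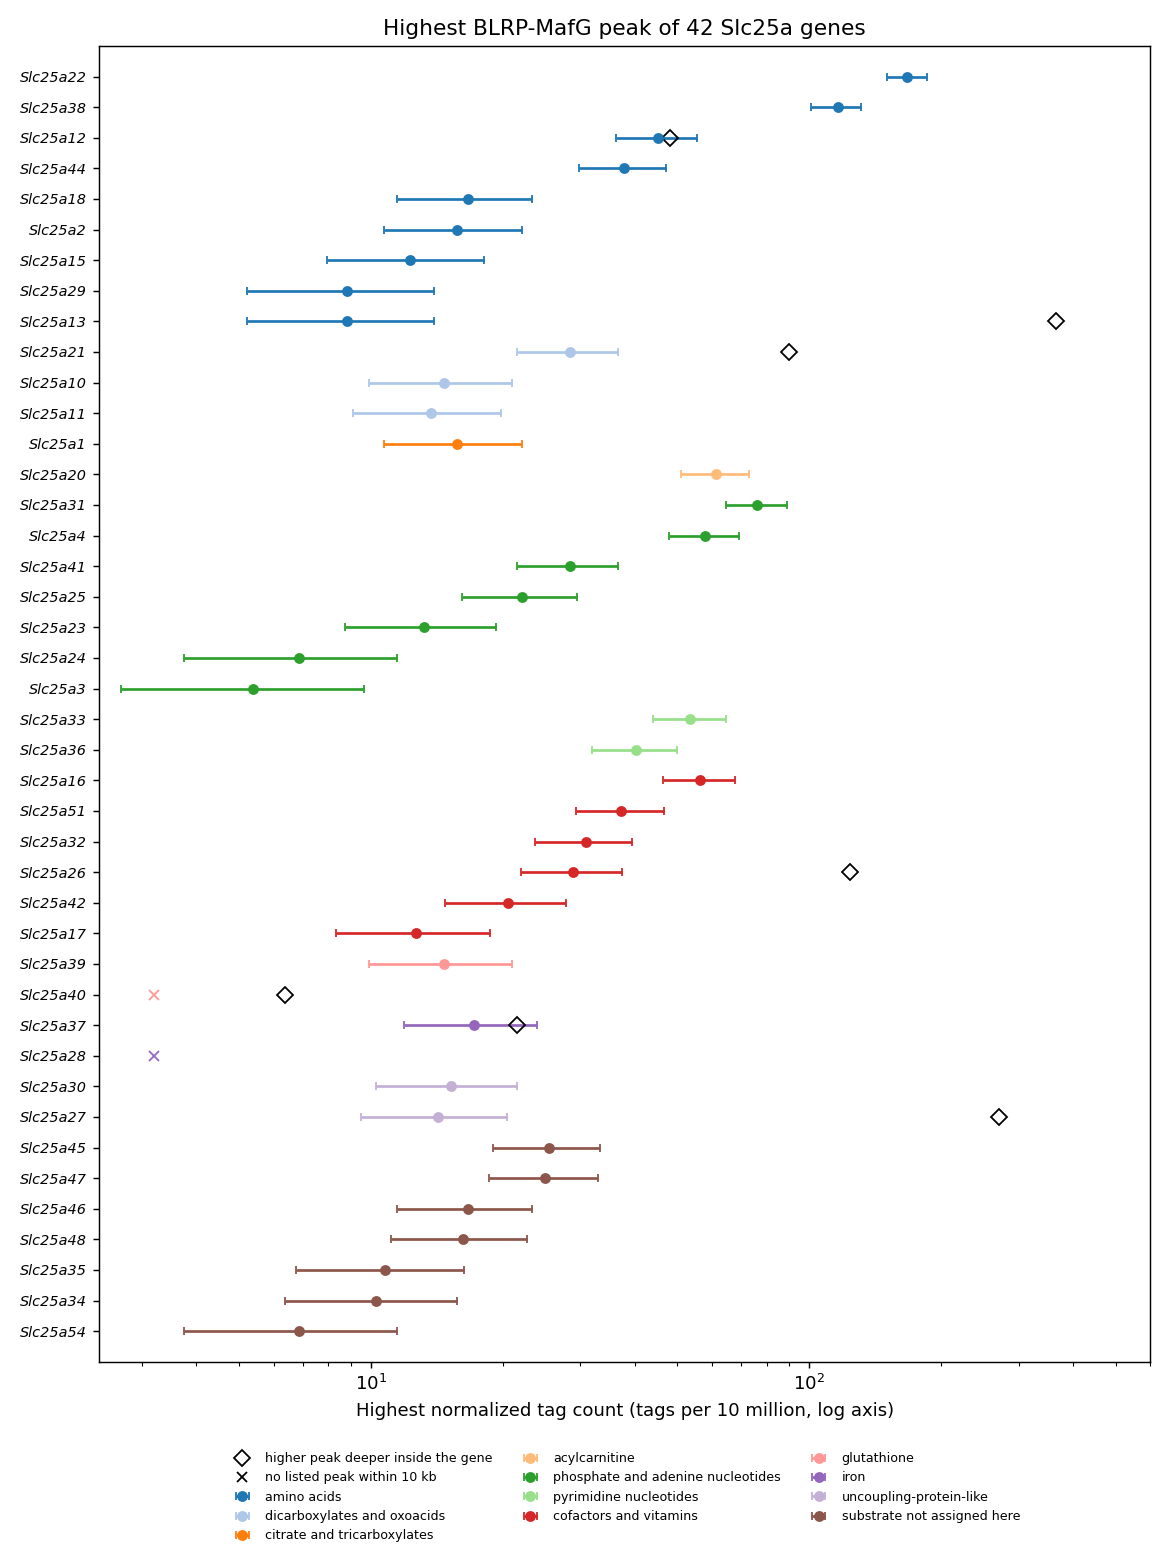
Highest normalized tag count within 10 kb of a gene end (x axis, tags per 10000000, log axis) for 42 of the 43 Slc25a genes, coloured by substrate class, with exact 95% Poisson intervals of tag counting. Open diamonds mark a higher peak more than 10 kb from both ends inside the gene, with the tallest at 366 in Slc25a13, and crosses mark Slc25a28 and Slc25a40, which had no peak within 10 kb.

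Carriers of amino acids had the widest spread of heights. All 9 had a peak within 10 kb, and their highest peaks ran from 8.82 to 167 with a median of 16.7. Slc25a22, a mitochondrial glutamate carrier, had the tallest peak of the family within 10 kb, at 167 (150 to 186). It lay inside the gene at chr7:141432353-141432553, 2704 bp from the end of the gene and 2141 bp downstream of the nearest listed start, with 6 control tags and a ratio to control of 47.9 (21.8 to 132). Its other listed peak, of 8.82, lay 9768 bp upstream of the gene and 9 bp from the ribosomal protein gene Rplp2. The second glutamate carrier, Slc25a18, reached 16.7 (11.5 to 23.3), and that peak lay inside its neighbour Atp6v1e1. The height intervals of the 2 glutamate carriers did not overlap, and the peak of Slc25a22 was 10.0 times as high.

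Slc25a38, the glycine carrier needed for haem synthesis, had 5 peaks, all outside the gene. On the downstream side stood 116 (101 to 131) at chr9:120134167-120134367, 8174 bp from the gene, and 79.4 (67.6 to 92.6) at chr9:120129146-120129346. Both were nearer to Rpsa, a ribosomal protein gene, than to Slc25a38, and the lower one lay inside Rpsa. The control held 5 and 7 tags there, giving ratios of 39.8 (16.8 to 124) and 19.5 (9.26 to 49.3). Upstream of Slc25a38 the peaks were 47.0 (38.1 to 57.4), 21.1 (15.2 to 28.4) and 20.6 (14.8 to 27.8), at 3168, 1244 and 7894 bp, and the last of them was nearer to Ccr8, 7577 bp away. The first of these 3 had 8 control tags, the most of any peak near the family, and a ratio of 10.1 (4.94 to 24.1). Thus the tallest peaks at this locus lay on the side shared with Rpsa, and those on the upstream side were of 47.0 or less.

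The aspartate/glutamate carriers Slc25a12 (aralar) and Slc25a13 (citrin, the liver form) serve the malate-aspartate shuttle, and citrin also supplies aspartate to the urea cycle. Slc25a12 held 45.1 (36.3 to 55.3) at chr2:71275757-71275957, 1587 bp inside the end of the gene, with 0 control tags. Against a floor of 3 control tags this was 25.9-fold higher than control, and the exact 95% lower limit, which takes both counts into account, was 20.6. Slc25a13 had only 8.82 (5.23 to 13.9) within 10 kb, upstream of its start, so on this count it stood 5.11 times below its paralog. Inside the gene, however, 8 further peaks lay more than 10 kb from both ends. The tallest, at chr6:6076069-6076269, reached 366 (340 to 393) with 2 control tags and a ratio of 315 (86.9 to 2606), and another reached 107 (93.6 to 123) with 0 control tags (61.6-fold against the floor, exact lower limit 49.7). Deep in Slc25a12 there was 1 such peak, of 48.0 (39.0 to 58.5). The order of the pair therefore turned with the window: citrin was lower near gene ends and higher over the whole gene.

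The ornithine carriers had highest peaks of 12.3 and 15.7, where the median of all genes with a peak was 17.2. Slc25a15, which exchanges ornithine for citrulline in the urea cycle, had 12.3 (7.93 to 18.1) 102 bp upstream of its start at chr8:22398623-22398823, in the promoter shown above. The control held 1 tag there, and the ratio was 21.1 (3.45 to 866). Slc25a2, a second ornithine carrier, had 15.7 (10.7 to 22.1) at 9192 bp, inside 3 other annotated genes, and these intervals overlapped. Slc25a29, a carrier of basic amino acids, had 1 peak of 8.82 (5.23 to 13.9) in its promoter. Slc25a44, a branched-chain amino acid carrier, had 4 peaks. The highest, of 37.7 (29.8 to 47.2) at chr3:88433871-88434071, lay 8830 bp outside it and nearer to Sema4a, where 1 control tag gave a ratio of 65.0 (11.3 to 2598). At its other end 28.4 (21.6 to 36.7) stood 99 bp inside the gene and 148 bp from Pmf1, with 2 control tags and a ratio of 24.5 (6.47 to 207).

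**Figure D4:**
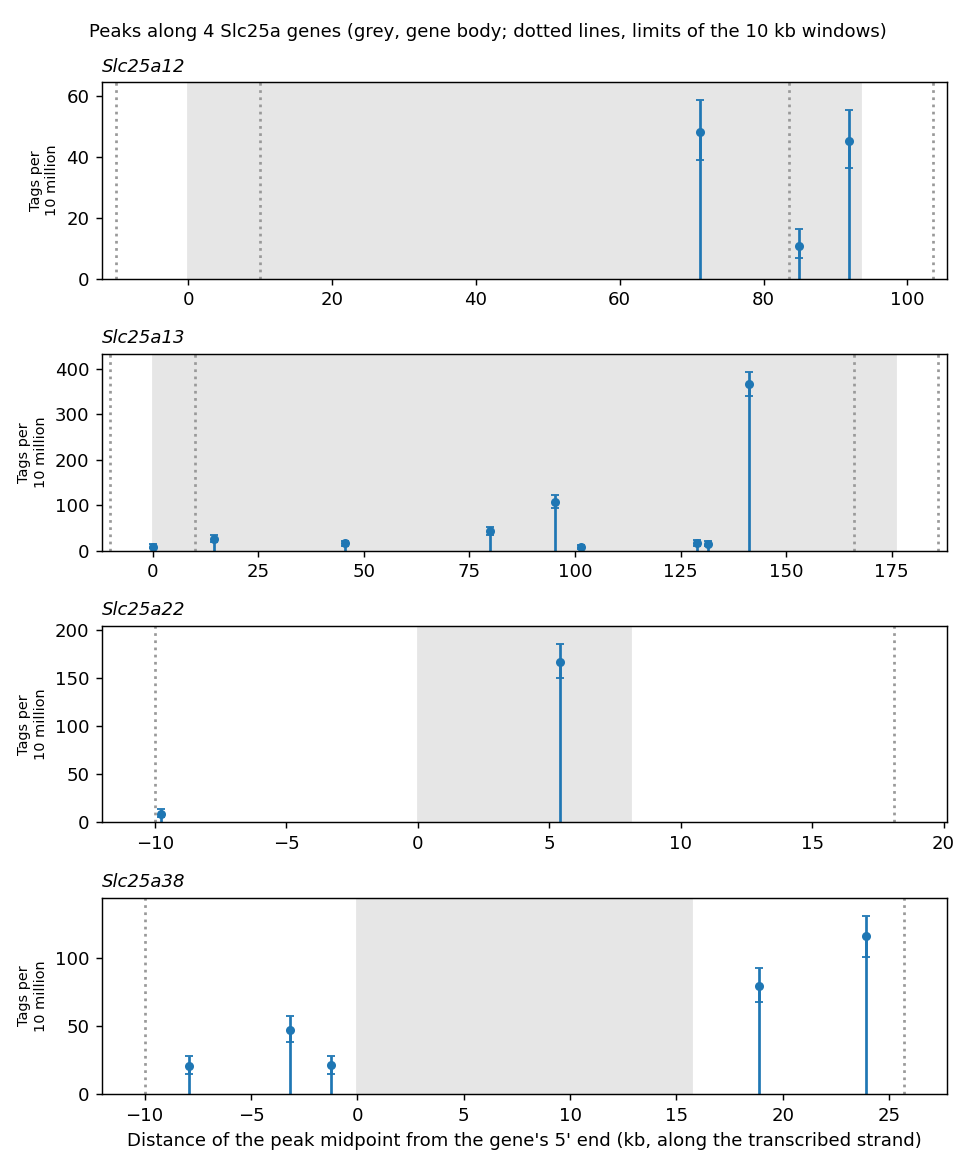
Peaks along Slc25a12, Slc25a13, Slc25a22 and Slc25a38 by distance of the midpoint from the 5′ end of the gene (x axis, kb along the transcribed strand) and normalized tag count (y axis, tags per 10000000, with exact 95% Poisson intervals). Grey shading marks the gene and dotted lines the limits of the 10 kb windows. The peak of 366 in Slc25a13 lies outside these windows, whereas the 167 of Slc25a22 lies inside its short gene.

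Carriers of dicarboxylates, oxoacids and citrate all had a peak, and none exceeded 28.4 within 10 kb. Slc25a21, the oxoadipate carrier of lysine and tryptophan breakdown, had 2 peaks of 28.4 (21.6 to 36.7) upstream, at chr12:57201008-57201208 and chr12:57204918-57205118. The control held 0 tags at the first (16.3-fold against the floor, exact lower limit 12.8) and 1 at the second (ratio 48.9, interval 8.44 to 1965). Another, of 16.7 (11.5 to 23.3), lay 208 bp inside the start at chr12:57197164-57197364, with 0 control tags (9.56-fold against the floor, exact lower limit 7.36). The remaining peak within 10 kb, of 25.0 (18.6 to 32.9), lay 8211 bp beyond the end of the gene and inside Pax9. Slc25a21 is the longest gene of the family, and 12 more peaks lay over 10 kb from both its ends, up to 89.7 (77.2 to 104). Slc25a10, which exchanges malate or succinate for phosphate, and Slc25a11, the oxoglutarate/malate carrier, had 14.7 (9.92 to 21.0) and 13.7 (9.12 to 19.8). Slc25a1, which exports citrate for fatty acid synthesis, had 15.7 (10.7 to 22.1). The peaks of Slc25a11 and Slc25a1 were nearer to Pfn1 and Gsc2.

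Slc25a20, the carnitine/acylcarnitine carrier that brings fatty acids to beta-oxidation, had 61.3 (51.0 to 73.0) at chr9:108655179-108655379. That peak lay 6857 bp upstream of the gene and 1598 bp from an end of Arih2. The control held 6 tags and the ratio was 17.6 (7.85 to 48.8). Its other peak within 10 kb, of 5.39, lay inside Prkar2a. Neither peak was thus closest to the carrier itself. One more, 10563 bp inside the gene and so just beyond the window, stood at 15.2 (10.3 to 21.6). At the inner edge of the window, the peaks of Slc25a22 at 9768 bp and Slc25a20 at 9512 bp had heights of 8.82 and 5.39. A little farther in were 28.9 at Slc25a26 (9085 bp), its highest within 10 kb, and 20.1 at Slc25a42 (9140 bp). The only peaks of Slc25a2 (15.7 at 9192 bp) and Slc25a11 (13.7 at 9018 bp) also lay there, so a slightly smaller window would drop them. Beyond the window, Slc25a27 and Slc25a51 had peaks of 7.84 and 6.86 at 10804 and 10825 bp.

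Carriers of phosphate and adenine nucleotides, which feed oxidative phosphorylation, all had a peak within 10 kb. The highest peaks of these 7 genes ran from 5.39 to 76.0, with a median of 22.1. The tallest belonged to Slc25a31, the germ-cell ADP/ATP translocase, at chr3:40702347-40702547, with 76.0 (64.5 to 88.9) and 0 control tags (43.6-fold against the floor, exact lower limit 35.0). It lay 6424 bp upstream of Slc25a31 but inside Intu, 2329 bp from an end of that gene. Slc25a4, the muscle and heart ADP/ATP translocase, had 57.8 (47.9 to 69.2) at chr8:46212292-46212492, 1330 bp upstream of its start, where no other gene was nearer. The control held 2 tags and the ratio was 49.8 (13.5 to 416). These 2 intervals overlapped. Slc25a3, the main phosphate carrier, had only 5.39 (2.69 to 9.64), the lowest highest peak of any member with one.

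The ATP-Mg/phosphate carriers, which adjust the adenine nucleotide pool of the matrix, had lower peaks than these 2 translocases. Slc25a25 had 3, the highest of 22.1 (16.1 to 29.5) at chr2:32415881-32416081, 1494 bp inside the end of the gene, with 0 control tags (12.7-fold against the floor, exact lower limit 9.87). The peak at its promoter, of 13.2 (8.72 to 19.3), had 2 control tags and a ratio of 11.4 (2.86 to 98.8), and lay inside Naif1. Slc25a23 had 13.2 (8.72 to 19.3) at chr17:57060357-57060557, 548 bp outside the gene, with 0 control tags (7.59-fold against the floor, exact lower limit 5.76). Its neighbour Slc25a41 had 16.7 (11.5 to 23.3) at chr17:57032088-57032288, 584 bp outside the gene, again with 0 control tags (9.56-fold against the floor, exact lower limit 7.36), and 28.4 (21.6 to 36.7) inside Khsrp. Slc25a24 shared its only peak, of 6.86 (3.75 to 11.5), with Slc25a54, which was closer. The interval of Slc25a24 did not overlap that of Slc25a25, whereas that of Slc25a23 overlapped both.

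Both pyrimidine nucleotide carriers had a single, fairly tall peak. Slc25a33 had 53.4 (43.9 to 64.4) 6609 bp upstream at chr4:149780776-149780976, with 2 control tags and a ratio of 46.0 (12.4 to 384). Slc25a36 held 40.2 (32.0 to 49.9) at chr9:97084108-97084308, 8927 bp inside the end of the gene, where 1 control tag gave a ratio of 69.2 (12.1 to 2765). Their height intervals overlapped, and no other gene was nearer to either peak.

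The 6 carriers of cofactors and vitamins described here all had a peak, with highest values from 12.7 to 56.4. Slc25a16, linked to coenzyme A transport, held 56.4 (46.5 to 67.6) at chr10:62928941-62929141, 8409 bp inside its start, with 0 control tags (32.3-fold against the floor, exact lower limit 25.9). Slc25a42, a coenzyme A carrier, reached 20.6 (14.8 to 27.8) 447 bp upstream of its start at chr8:70212628-70212828, with 3 control tags and a ratio of 11.8 (3.77 to 59.6), and these 2 height intervals did not overlap. The peroxisomal carrier Slc25a17, which moves coenzyme A and related nucleotides, had 12.7 (8.32 to 18.7), inside St13.

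The NAD carrier Slc25a51 had 4 peaks, which included the tallest within 1 kb of any member. The highest, of 37.2 (29.3 to 46.6), lay 1091 bp inside the gene at chr4:45407726-45407926 with 0 control tags (21.4-fold against the floor, exact lower limit 17.0). The one within 1 kb, of 35.3 (27.6 to 44.4), lay 510 bp outside the other end at chr4:45395313-45395513, with 4 control tags and a ratio of 15.2 (5.68 to 57.2). Its ends thus carried peaks of like height. Slc25a32, which carries folate and FAD, held 30.9 (23.7 to 39.5) at chr15:39105611-39105811 with 0 control tags (17.7-fold against the floor, exact lower limit 14.0). Slc25a26 imports S-adenosylmethionine and had 28.9 (22.0 to 37.3) within 10 kb. Deeper inside this gene stood 124 (109 to 140), with 0 control tags (71.1-fold against the floor, exact lower limit 57.4), and 106 (92.7 to 121), with a ratio of 45.8 (17.6 to 169). Both were slightly nearer to an end of Lrig1, at 15978 bp against 16108 bp and at 23785 bp against 23915 bp.

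Carriers of glutathione and iron, which belong to processes that NRF2 and BACH1 are known to regulate, had peaks of 17.2 or less, or none, within 10 kb. Slc25a39, a glutathione carrier, had 1 peak of 14.7 (9.92 to 21.0), 3224 bp upstream, with 2 control tags and a ratio of 12.7 (3.21 to 109). Its paralog Slc25a40 had none within 10 kb, and the nearest, of 6.37, lay 11368 bp inside the gene. Mitoferrin-1, Slc25a37, had 3 peaks, the highest of 17.2 (11.9 to 23.9) 466 bp outside the gene at chr14:69241282-69241482. The control held 1 tag there and the ratio was 29.5 (4.96 to 1199). A higher peak, of 21.6 (15.7 to 28.9), lay 18179 bp inside the gene with 0 control tags (12.4-fold against the floor, exact lower limit 9.65). Mitoferrin-2, Slc25a28, had none inside or within 10 kb, and its nearest, of 7.35, lay 14570 bp away. Binding at Slc25a28 and Slc25a40 that was too weak for the caller would not be in the list.

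The uncoupling-protein-like carriers each had a peak within 1 kb. Slc25a30 had 12.7 (8.32 to 18.7) 259 bp upstream of its start at chr14:75787196-75787396, with 0 control tags (7.31-fold against the floor, exact lower limit 5.53). Its highest, of 15.2 (10.3 to 21.6), lay 8954 bp inside the start. Slc25a27, known mainly from brain, had 14.2 (9.52 to 20.4) at chr17:43667163-43667363. That peak lay in the gap between Slc25a27, 49 bp away, and the oxysterol hydroxylase gene Cyp39a1, 109 bp away, where 1 control tag gave a ratio of 24.5 (4.06 to 999). Farther inside Slc25a27, 13787 bp from the nearer end, stood one of the tallest peaks of the family, 271 (249 to 295) at chr17:43651426-43651626, with 3 control tags and a ratio of 155 (52.9 to 756).

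Members to which no substrate was assigned here all had a peak, with highest values from 6.86 to 25.5. Slc25a47, a liver-enriched carrier, had 25.0 (18.6 to 32.9) at chr12:108850473-108850673, with 3 control tags and a ratio of 14.3 (4.64 to 71.8). This peak lay 740 bp inside the gene, 556 bp upstream of a listed start within it. Slc25a45 stood at 25.5 (19 to 33.4), 1234 bp outside the end of the gene. Slc25a46, an outer membrane member linked to mitochondrial shape, held 16.7 (11.5 to 23.3) 794 bp inside one end at chr18:31580858-31581058, with 0 control tags (9.56-fold against the floor, exact lower limit 7.36). Slc25a48 had 16.2 and Slc25a35, Slc25a34 and Slc25a54 had 10.8, 10.3 and 6.86. Those of Slc25a48 and Slc25a34 were nearer to Il9 and Plekhm2.

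Paralogs that carry the same or related substrates had height intervals that overlapped in some pairs and not in others. Of 14 pairs listed, 13 had both genes in the annotation. Height intervals overlapped in 7 pairs and did not overlap in 4. An overlap does not show equal heights: Slc25a23 and Slc25a24, at 13.2 and 6.86, were among the 7. The 4 were Slc25a12 and Slc25a13, Slc25a18 and Slc25a22, Slc25a24 and Slc25a25, and Slc25a16 and Slc25a42. In the other 2 pairs, of mitoferrins and of glutathione carriers, 1 gene had no peak within 10 kb. These intervals cover tag counting alone, and no spread between livers is known.

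Peaks deep inside long genes changed the picture for some carriers. When the whole gene was added to the 10 kb on either side, 114 distinct peaks were counted, 34 more than near the ends. They lay in 12 members, with 12 in Slc25a21, 8 in Slc25a13 and 5 in Slc25a26. For 7 members the highest peak then lay over 10 kb from both ends. On this count 42 of 43 genes (97.7%) had a peak, against 76.5% of all genes, and the median highest peak was 21.6, against 14.7. A height of 100 or more was reached by 5 members (11.6%, against 7.95% of all genes), which were Slc25a13, Slc25a27, Slc25a22, Slc25a26 and Slc25a38. Only a gene over 20 kb long can hold such deep peaks, and 22 of the 43 were that long.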

How the data were processed

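Chromatin immunoprecipitation with sequencing was done on 4 liver libraries, 2 per group. Bowtie2, HOMER and build mm10 are named, without versions, per the submitters' processing notes. Peaks of 200 bp were called, per the file headers, with HOMER findPeaks on 1 BLRP-MafG and 1 control tag collection, requiring 10-fold over control at a Poisson p of 1e-06 and 4-fold over the surrounding 10 kb. Whether a collection joined both libraries is not known. The deposited tag signals are the normalized tag count and the unscaled control tags, in which 0.5 stands for 0. The deposited fold values are linear ratios, which here served as filters. The folds over control also gave the implied control total of 1.72e+07 tags, which scales every ratio to control. Where the control held tags, these ratios therefore restate the deposited folds, and only their intervals are added here. The deposited Poisson p-values and peak score were not used further, as they weigh tags and not animals, and 1 column with a rescaled copy of the BLRP-MafG tags was left out.

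Scaled back by the header's total of 20406492, every normalized tag count was whole to within 0.102 tags. From these tags, exact 95% Poisson intervals and, for ratios to control, exact conditional binomial intervals were computed, with a floor of 3 tags where the control had 0. Intervals and floors cover counting error only, and reads from similar gene copies may have been split by mapping. Genes came from a RefSeq table of GRCm38.p6. Distances run from the peak midpoint to the nearer gene end. Genes described in full were the 12 with the highest peak within 10 kb and those with a peak of at least 10 within 1 kb, except 1 that is counted but not reported here by itself. Members, substrate classes and lists were chosen with earlier results of these data known. Promoter starts were available for 32 members. Distances and intervals were tested on simulated data. Python 3.11.15, pandas 2.3.3 and scipy 1.17.1 were used.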

Additional observations from a re-analysis of the deposited data

How the results depend on the processing

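Of 31 values under alternative settings, 20 stayed within 1.5 times the reported value, among them all 4 with distance taken to the nearest base of the peak, all 4 with a fold over control of at least 20, all 4 without peaks nearer to another gene and all 3 with whole genes added. Requiring a 10-fold excess over the surroundings left 25 of 43 members with a peak within 10 kb, against 51.2% of all genes. With all listed peaks these were 41 of 43 and 71.2%, so the lead of members over all genes became smaller. Within 1 kb 7 of 43 were left (11.4% of all genes), and 41 peaks remained. Requiring a height of 20 left 20 of 43 members within 10 kb (46.5%, against 30.6% of all genes) and 5 of 43 within 1 kb (5.14% of all genes). It left 31 peaks and a median highest peak of 0, the same as over all genes. Removing peaks can only lower such counts, and whether members lost more than other genes was not tested. A 5 kb window held 51 peaks and a 25 kb window 143, with a median highest peak of 28.4 at 25 kb (21.6 over all genes). At 25 kb all 43 members had a peak, against 88.0% of all genes. Counting start sites only, 9 of 32 members had a peak within 1 kb (22.5% of all genes with a listed start). No paired analysis was possible because the list holds no value per library, and for the same reason no library could be left out. The median listed peak is 12.3 tags per 10000000, so single low peaks are known only roughly.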

Other observations

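The 4 Slc25a genes on chromosome X, outside the set described above, each had a peak within 10 kb, where 42.4% of the 966 protein-coding genes of that chromosome had one, and the highest of these peaks stood at 10.3. Slc25a14, an uncoupling-protein-like carrier, had 10.3 (6.37 to 15.7) 70 bp inside the gene. Slc25a5, the ADP/ATP translocase of most tissues, had 3, the highest of 7.35 (4.11 to 12.1), and shared one of that height with Slc25a43. Slc25a53 had 5.88 (3.04 to 10.3). Inside Slc25a43 a peak over 10 kb from both ends reached 31.4 (24.2 to 40).

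Family members without a Slc25a symbol were mixed. Of Ucp1, Ucp2, Ucp3, Mtch1 and Mtch2, 3 of 5 had one within 10 kb (71.2% of all genes on chromosomes 1 to 19), the highest of 18.6 (13.2 to 25.6) inside the uncoupling protein gene Ucp3, and Ucp1 and Ucp2 had none. Among 15 other genes of inner membrane transport, 13 had a peak within 10 kb and 5 within 1 kb (25.4% of all genes), with a median highest peak of 15.7. Abcb10, an ABC transporter linked to haem synthesis, held 122 (107 to 138), and Abcb8 had none. Of the outer membrane channel genes Vdac1, Vdac2 and Vdac3, Vdac1 had peaks, up to 29.9 (22.9 to 38.4), and the other two had none.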
